A study of Mus musculus with 39 samples.

Results

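Spermatogonia are the mitotic germ cells at the base of the seminiferous tubule, and here they were chosen by their UMI counts of marker genes in droplet single-cell RNA-seq of whole mouse testis. A barcode counted as a gated spermatogonium when it held at least 3000 UMIs (molecules counted once), at most 20% of them mitochondrial, and at least 1 UMI of 3 or more of the 6 markers Dmrt1, Kit, Sohlh1, Crabp1, Uchl1 and Zbtb16. It also had to hold fewer than 2 UMIs of Stra8 and UMIs of fewer than 3 of the 5 meiotic genes Prdm9, Dmc1, Meiob, Tex15 and Rad51ap2. Of 19625 barcodes that passed the UMI and mitochondrial limits, 292 met the rule. The control library gave 154 of 11181 and the conditional knockout (cKO) library 138 of 8444.

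The study removed Kdm6a, also called Utx, from the germ line of male mice. The control library came from a Kdm6a fl/y; Cre- testis preparation and the cKO library from Kdm6a fl/y; Ddx4-Cre+, so both carried the floxed allele and only the cKO carried Cre, which the Ddx4 promoter drives in germ cells. Whole testes were dissociated with collagenase and then trypsin, filtered, and run on a droplet kit that reads the 3′ ends of transcripts; the labels give no number, age or strain for the animals behind each library. With 1 library per genotype there is no replicate and no test, so every difference below compares these 2 libraries, and the 95% intervals (exact Poisson for a level, exact Clopper-Pearson for a share, exact conditional for a ratio, Newcombe for a difference of shares) cover counting error only. Intervals of levels and ratios treat each UMI as independent, so they leave out the spread between cells.

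KDM6A removes methyl groups from lysine 27 of histone H3 (H3K27), a mark that the Polycomb complex PRC2 writes and that accompanies silent promoters. Spermatogonia begin as undifferentiated cells that divide in response to the growth factor GDNF and depend on factors such as ZBTB16. Under retinoic acid they switch on KIT, pass through a series of rapid divisions, and then start STRA8 and enter meiosis, during which the X chromosome is silenced.

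The gate took a similar share of both libraries. It held 1.38% (1.17 to 1.61) of passing barcodes in control and 1.63% (1.37 to 1.93) in cKO, a difference of 0.257 percentage points with an interval of -0.0845 to 0.612. Gated barcodes held 3018 to 67772 UMIs in control (median 6665.5) and 3010 to 28843 in cKO (median 5802.5), 1361323 and 1014090 UMIs in all. They differed from the other passing barcodes in their mitochondrial share, with a median of 4.69% in control and 6.25% in cKO against 0.509% and 0.399%, a level near that of a Stra8 gate (5.30% and 7.51%) and an early meiotic gate (5.02% and 5.76%), both defined below. They detected a median of 3143 and 2722 genes. No gated barcode sequence occurred in the gate of both libraries, while 30 passing barcode sequences occurred in both. With a minimum of 5000 UMIs the difference in share was -0.0702 points.

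The values of the gate genes chose the cells and are given as a description. Uchl1, a deubiquitinating enzyme abundant in spermatogonia, had a UMI in 96.1% of gated control and 97.8% of gated cKO barcodes, against 15.1% of the other barcodes in each library. Dmrt1, a transcription factor that holds spermatogonia back from meiosis, was seen in 77.9% and 67.4%. Crabp1, which binds retinoic acid in the cytoplasm, was seen in 66.9% and 76.1%. Kit, the receptor gene that differentiating spermatogonia switch on, was seen in 62.3% and 53.6%. Sohlh1, a helix-loop-helix factor that spermatogonia need to differentiate, had a UMI in 46.8% and 50.7%. Zbtb16, the zinc-finger repressor that maintains undifferentiated cells, was the rarest of the markers at 25.3% and 31.9%. Over all barcodes outside the gate the markers were sparse, from 0.963% (Zbtb16, cKO) to 3.68% (Kit, control) for the 5 markers apart from Uchl1. In the Stra8 gate the same 5 were not sparse, from 14.7% (Zbtb16, control) to 58.9% (Crabp1, cKO) of its barcodes, so they are not particular to the spermatogonia gate. Nor is Uchl1, which had a UMI in 48.0% and 83.9% of Stra8 gate barcodes. In a Sertoli gate (at least 6 of 12 Sertoli markers) Uchl1 was seen in 43.4% and 41.3% of barcodes and Dmrt1 in 9.72% and 14.7%. Kit is also a gene of Leydig cells, and 81.4% and 72.0% of barcodes in a Leydig gate (at least 5 of 8 Leydig markers) had a UMI of it, whereas Crabp1 had none there. Zbtb16 had a UMI in 17.5% and 1.08% of Leydig gate barcodes.

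Among the genes that the rule kept low, Tex15 was not low. It had a UMI in 92.2% of control and 87.0% of cKO gated barcodes, so that for most cells the meiotic limit left room for 1 further meiotic gene. Dmc1, the recombinase of meiotic strand exchange, was seen in 20.8% and 15.9%. Prdm9, which places recombination hotspots, was seen in 5.19% and 6.52%, and Meiob in 2.597% and 0.725%. At the edge of the rule, where values are a description, 74 control and 58 cKO barcodes had exactly 3 markers, and 185 and 129 had exactly 2 and lay outside. A list of 20 X-linked germ cell genes that the rule did not use held 1172 CPM (UMIs per 1000000 UMIs summed over the cells in question) in control and 1376 in cKO with 3 markers, and 272 and 330 CPM with 2. Barcodes with 1 UMI of Stra8 numbered 27 and 25 inside, and those with 2 numbered 14 and 11 outside. With 3 meiotic genes, 8 and 5 barcodes lay outside, and their 21 meiotic prophase genes summed to 4922 and 4813 CPM, against 2838 and 2455 CPM in the 44 and 26 barcodes with 2. In the narrow bin of UMIs that starts at the minimum of 3000 there were 5 gated barcodes in each library. In the bin from 2700 up to that minimum, 895 control and 492 cKO barcodes passed the mitochondrial limit and 0 met the rest of the rule.

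The promoters of the gate markers differed in base composition and in chromatin. They are shown because peak lists from cKIT+ spermatogonia, the closest cells of the study in which chromatin was read, cover the same start sites. RefSeq (GRCm38.p6) start sites matched 4 of the 6 markers, and Dmrt1 and Zbtb16 were not among them. Each line gives the 250 bases before the start site, 5′ to 3′ on the gene's strand, with the GC box GGGCGG or its reverse complement CCGCCC in capitals. The positions are chr5:66675871-66676120 (plus strand) for Uchl1, chr9:54764498-54764747 (plus) for Crabp1, chr2:25847249-25847498 (minus) for Sohlh1, chr5:75574737-75574986 (plus) for Kit and, for contrast, chr6:34920698-34920947 (plus) for Stra8.
Uchl1: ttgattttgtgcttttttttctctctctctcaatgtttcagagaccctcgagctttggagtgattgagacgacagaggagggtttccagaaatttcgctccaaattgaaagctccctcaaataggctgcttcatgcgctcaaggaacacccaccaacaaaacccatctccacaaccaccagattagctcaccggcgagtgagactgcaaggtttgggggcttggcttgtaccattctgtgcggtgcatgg
Crabp1: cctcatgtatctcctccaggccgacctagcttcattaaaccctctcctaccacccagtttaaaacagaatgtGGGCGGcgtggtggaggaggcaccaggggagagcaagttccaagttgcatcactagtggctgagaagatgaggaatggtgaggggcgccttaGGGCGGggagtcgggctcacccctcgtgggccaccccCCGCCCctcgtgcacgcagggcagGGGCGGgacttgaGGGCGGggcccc
Sohlh1: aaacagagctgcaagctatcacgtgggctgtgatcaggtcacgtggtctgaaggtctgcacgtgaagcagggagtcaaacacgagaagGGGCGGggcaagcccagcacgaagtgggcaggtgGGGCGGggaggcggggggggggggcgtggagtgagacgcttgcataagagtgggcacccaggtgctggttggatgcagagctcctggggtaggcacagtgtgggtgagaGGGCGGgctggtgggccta
Kit: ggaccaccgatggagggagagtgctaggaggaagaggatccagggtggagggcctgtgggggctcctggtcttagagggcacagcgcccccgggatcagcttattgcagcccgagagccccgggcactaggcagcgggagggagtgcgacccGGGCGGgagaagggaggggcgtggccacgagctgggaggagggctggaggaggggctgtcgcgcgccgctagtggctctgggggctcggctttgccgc
Stra8: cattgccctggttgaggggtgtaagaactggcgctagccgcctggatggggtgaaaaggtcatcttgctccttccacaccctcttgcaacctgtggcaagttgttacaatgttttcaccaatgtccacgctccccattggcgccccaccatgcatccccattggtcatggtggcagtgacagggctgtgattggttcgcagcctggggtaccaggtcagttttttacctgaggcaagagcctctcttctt

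Crabp1 held 5 GC boxes, Sohlh1 held 3 and Kit held 1, while Uchl1 and Stra8 held 0. Of all 32851 promoters in the table, 32.7% held at least 1. The CpG counts were 17 for Kit, 12 for Crabp1, 11 for Sohlh1, 7 for Uchl1 and 5 for Stra8, beside a median of 6 over all promoters. In the sorted cKIT+ cells (2 control and 3 cKO libraries per assay, from other preparations than the single cells), a peak was counted when it lay within 1000 bases of the start site. Crabp1 and Sohlh1, the promoters with the most GC boxes of the 5, carried an H3K27me3 peak in 5 of 5 libraries. They also carried an ATAC-seq peak, a stretch of open chromatin, in 3 and 4 of 5 libraries. Kit and Uchl1 had ATAC-seq peaks in all 5, with the authors' fold enrichment at 4.37 to 4.88 and 3.92 to 5.73, and H3K27me3 peaks in 3 of 5 each (1 control and 2 cKO for Kit, 2 control and 1 cKO for Uchl1). Stra8 had an ATAC-seq peak in all 5 (fold enrichment 3.13 to 3.82) and an H3K27me3 peak in 0. Over 27025 genes with a start site in the table, 26.2% had an ATAC-seq peak in all 5 libraries and 6.12% an H3K27me3 peak in all 5.

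Genes outside the rule were then described in the gated cells. The genes with the highest ratio of gated over other barcodes, a description of cells already chosen, began with P3h3, Cenpa, Hist1h2ap and Ccnd1. Ccnd1, the cyclin that drives entry into S phase, stood at 163 CPM in gated control and 174 in gated cKO against 3.43 and 3.70 CPM in other barcodes. Cenpa, the centromeric histone variant, stood at 177 and 176 CPM against 1.78 and 2.63. Cdkn2a, a cell cycle inhibitor, stood at 143 and 185 CPM against 6.82 and 6.38. Of these 20 genes, 18 had a chromosome in the reference table and 7 of those (38.9%) lay on the X, among them Usp26, Tex11, Taf1, Atrx, Zrsr2, Map7d2 and Rpl36a. Over all 1955 ranked genes with a chromosome, 1.38% lay on the X. The ratio over all other barcodes does not set the gate apart from the gates nearest to it. The X share of UMIs was also high in the Leydig, Sertoli and Stra8 gates, as given below. The list of undifferentiated spermatogonial genes summed to 242 CPM (216 to 269) in gated control, above the 124 CPM (109 to 140) of barcodes with 10 to 200 UMIs, which hold free RNA. Leydig barcodes also lay above free RNA for this list, at 178 CPM (151 to 208). The germ cell gene Dazl, an RNA-binding protein gene, had a UMI in 98.1% and 97.8% of gated barcodes, against 14.8% and 10.7% of barcodes in an elongating spermatid gate (at least 10% of UMIs from 10 late spermatid markers) with median depths of 6810 and 6269.5 UMIs. It did not separate the gate from the germ cells nearest to it: 98.1% and 98.1% of early meiotic barcodes and 96.1% and 94.6% of barcodes in a Stra8 gate had a UMI of it. That Stra8 gate asked for at least 2 Stra8 UMIs, fewer than 3 meiotic genes, fewer than 6 of 10 round spermatid markers and under 5% of UMIs from late spermatid markers.

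Some gated barcodes also carried transcripts of other cells. A barcode was called mixed, by limits chosen after seeing the data, when at least 5% of its UMIs came from the 10 elongating spermatid markers or when it held UMIs of at least 6 of 10 round spermatid, 5 of 8 Leydig or 5 of 12 Sertoli markers. By these limits 24 control barcodes with 31.9% of the gated UMIs and 28 cKO barcodes with 34.5% were mixed, and 130 and 110 remained. Late spermatid markers brought in 13 control and 15 cKO barcodes, round spermatid markers 11 and 8, Sertoli markers 5 and 5, and Leydig markers 1 and 1, with some counted more than once. The deepest control barcode held 67772 UMIs, 16.5% of them from late spermatid markers, and the deepest cKO barcode 28843 UMIs, 27.05% of them. The median barcode held 1.19% and 0.818%. Macrophage markers summed to 7.35 and 11.8 CPM, endothelial markers to 5.88 and 10.8 CPM and peritubular myoid markers to 93.3 and 72.0 CPM. The 10 pachytene spermatocyte markers summed to 5739 and 5169 CPM, and to 4012 and 3398 CPM without mixed barcodes. The limits did not use them, so barcodes mixed with spermatocytes could remain. Values without the mixed barcodes are given beside many of the results below. Their part in the results beyond those values was not tested.

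**Figure D1:**
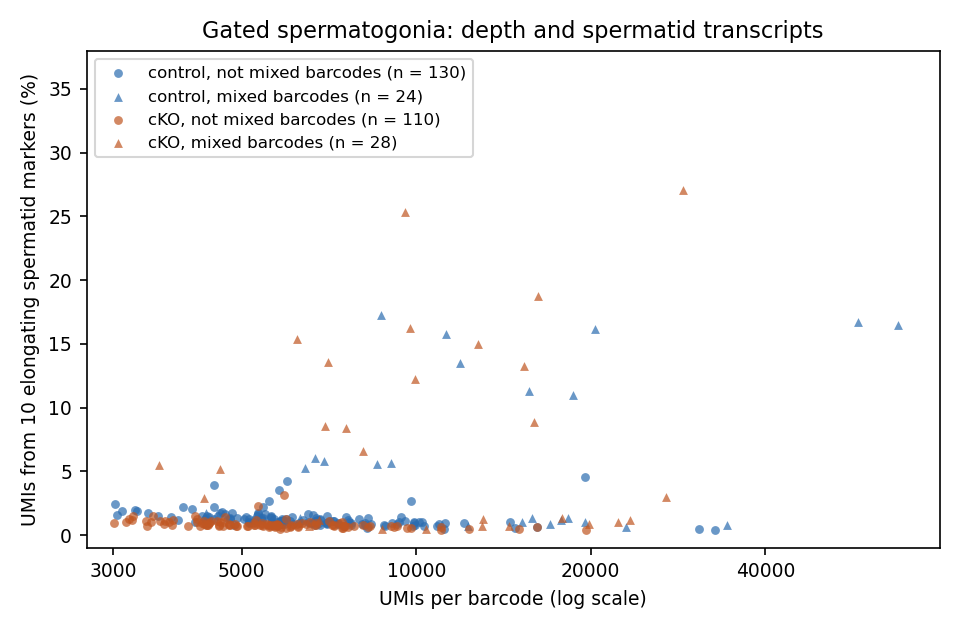
Each point is 1 gated barcode, with its UMIs on the x axis (log scale) and the percentage of them from 10 elongating spermatid markers on the y axis; colour gives the library and triangles are mixed barcodes. Most barcodes lie near 1% and toward the shallow end, and the deepest control barcode (67772 UMIs) holds 16.5% spermatid transcripts.

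Kdm6a was sparse in gated spermatogonia of both genotypes. The control library held 19 UMIs in 18 of 154 cells (11.7%, 7.08 to 17.8), 13.96 CPM (8.40 to 21.8), and the cKO library 8 UMIs in 8 of 138 cells (5.80%, 2.54 to 11.1), 7.89 CPM (3.41 to 15.5). The log2 ratio of cKO over control was -0.82, with an interval from -2.22 to 0.44, so a difference was not detectable at this depth. Without mixed barcodes the levels were 17.2 and 7.53 CPM and the log2 ratio -1.20 (-2.999 to 0.32). Free RNA held Kdm6a at 10.3 CPM in control and 13.96 (9.48 to 19.8) in cKO, log2 0.43 (-0.41 to 1.30). The gated cKO level lay below that of free RNA, but their intervals overlapped. The 2 ratios had opposite signs and both intervals spanned 0. After thinning, a random draw of each cell to 3000 UMIs, 5.19% and 2.17% of gated cells had a UMI of it, against 0.248% and 0.0529% in the elongating spermatid gate. Leydig cells, in which the Ddx4-Cre should not act, gave 13.3 and 9.19 CPM and a log2 ratio of -0.53 (-2.11 to 0.93). Barcodes of the Sertoli gate gave 7.16 and 7.95 CPM, log2 0.15 (-0.91 to 1.18). That gate set no limit on germ cell transcripts, and 47.6% and 40.2% of its barcodes had a UMI of Ddx4, against 23.7% and 23.7% of Leydig barcodes. It is therefore not a purely somatic contrast. All barcodes outside the spermatogonia gate together gave 281 and 55 UMIs, log2 -1.93 (-2.37 to -1.51). In an early meiotic gate (at least 3 of the 5 meiotic genes, with fewer than 6 of 10 round spermatid markers and under 5% of UMIs from late spermatid markers) the separation was wide, with 99 UMIs or 32.2 CPM in control against 4 UMIs or 3.57 CPM in cKO, which is log2 -3.17 (-5.08 to -1.77). The counted 3′ tags may come from exons that Cre leaves in place, so these levels are not a direct measure of the deletion. With fewer than 2 meiotic gate genes allowed, the gated log2 ratio was 0.11.

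Most other genes of H3K27 methylation were measured more deeply, but Uty and Epop were about as sparse as Kdm6a or sparser. For the genes below, a log2 ratio with its interval is that of the CPM of cKO over control; medians over lists and 2-fold calls add 1 CPM to both levels. Kdm6b, the other H3K27 demethylase, stood at 43.3 and 68.0 CPM (log2 0.65, 0.13 to 1.18), but at 56.1 and 69.3 CPM, 0.31 (-0.30 to 0.91), without mixed barcodes. Uty, the Y-linked relative of Kdm6a with little demethylase activity, had 15 UMIs in each library, 11.0 and 14.8 CPM. Both libraries thus held UMIs of all 3 members of this enzyme family in gated cells. Among the PRC2 core, Suz12 was at 166 and 117 CPM (log2 -0.50, -0.83 to -0.17), and Rbbp4 at 203 and 161 CPM (-0.34, -0.63 to -0.06). Ezh2, the catalytic subunit, was at 115 and 91.7 CPM (-0.33, -0.72 to 0.05), and Eed at 64.6 and 55.2 CPM (-0.23, -0.74 to 0.27). Of the accessory subunits, Aebp2 was at 41.1 and 21.7 CPM (-0.92, -1.71 to -0.19; -0.65, -1.50 to 0.14 without mixed barcodes), Jarid2 at 86.7 and 85.8 CPM and Mtf2 at 106 and 132 CPM (0.32, -0.03 to 0.67). The intervals of Suz12 and Rbbp4 lay below 0 with and without mixed barcodes (Suz12 -0.71, -1.09 to -0.34, and Rbbp4 -0.36, -0.69 to -0.05 without them), while those of Ezh2, Eed and Mtf2 spanned it. No count was made of intervals below 0 among all genes. Across the 11 of 15 list genes that had at least 50 UMIs over both libraries, the median log2 ratio was -0.22 (-0.21 without mixed barcodes), 9 lay below 0 and 0 were past 2-fold. Over all 7174 genes measured at that minimum the median was -0.08, and 58.0% lay below 0. Epop, another partner of PRC2, had 1 UMI in control and 7 in cKO.

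Across all genes, few differed by 2-fold, and those that did were mostly lower in cKO. Of the 7174 genes with at least 50 UMIs, 156 (2.17%) were lower in cKO by log2 1 or more and 16 (0.223%) were higher. Without mixed barcodes, 5750 genes reached the minimum, and 138 (2.4%) were lower and 17 (0.296%) higher. These counts depended on the settings, from 15 to 403 lower and from 1 to 153 higher over the alternatives described at the end. The genes named here were taken in order of the interval bound nearest 0. Several leading genes in the lower direction came from few barcodes. Insl3, the hormone gene of Leydig cells, had 169 UMIs in control and 9 in cKO, 161 of the 169 in 1 barcode, and the 8 Leydig markers as a list stood at 264 and 53.2 CPM, or 18.3 and 15.1 CPM without mixed barcodes. Actrt3, an actin-related protein gene, had 84 and 2 UMIs, and without mixed barcodes 14 and 1. In all, 11 of the 156 lower genes had 50% or more of their control UMIs in 1 barcode, and 98 were still lower by log2 1 or more without mixed barcodes, 48 of them still with 50 UMIs.

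For the 10 genes named among those lower without mixed barcodes, log2 ratios outside the gate ran from -0.22 (Cylc1) to -1.24 (Hist1h1e). The share of all genes below 0 outside the gate was not counted. Gm8251 had 270 CPM in control and 26.6 CPM in the cKO gate, and 97.0 and 13.6 CPM without mixed barcodes. In the barcodes outside the gate it had 151 and 71.9 CPM, a log2 ratio of -1.06. Fsip2, which encodes a protein of the sperm tail sheath, stood at 255 and 78.3 CPM without mixed barcodes and at 455 and 276 CPM outside the gate. Several of the named genes encode histones. Hist1h2aa stood at 453 and 154 CPM without mixed barcodes, Hist1h1e at 142 and 48.2 CPM, and Hist1h1t, the testis linker histone, at 59.3 and 15.1 CPM. Hist1h1a, another linker histone gene, stood at 584 and 289 CPM over all gated barcodes and at 24.8 and 6.84 CPM outside the gate. Hist1h2ap went the other way, at 480 and 583 CPM in the gate. Histone genes exist in near-identical copies, so the split of reads between them is uncertain. The 10 elongating spermatid markers moved in the same direction without mixed barcodes, from 12197 CPM in control to 8131 in cKO, and the 10 round spermatid markers from 433 to 324 CPM, and their part in these differences was not tested. Ptpn18, a tyrosine phosphatase gene named among all gated barcodes, was not lower outside the gate. It stood at 50.7 CPM in control and 1.51 in cKO without mixed barcodes but at 3.23 and 3.44 CPM outside the gate. Its 50 control UMIs over all gated barcodes lay in 8 of 154 barcodes, 17 of them in 1, and free RNA held it at 23.2 and 27.01 CPM, above the cKO gate.

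The genes higher in cKO included Sdc4, Smagp and Gng13. Sdc4, a heparan sulphate proteoglycan of the cell surface, had 84 UMIs in control and 141 in cKO, 61.7 and 139 CPM, in 26 and 34 cells, a log2 ratio of 1.17 (0.77 to 1.58). Without mixed barcodes it stood at 61.4 and 182 CPM, and outside the gate at 6.62 and 6.60 CPM. After thinning, 10.4% of control and 18.8% of cKO cells had a UMI of Sdc4, against 1.12% and 0.820% in the elongating spermatid gate and 7.22% and 8.60% in the Leydig gate. Barcodes of the Stra8 gate, with 11.8% and 19.6%, had the same order. Unthinned shares were 16.9% and 24.6%. Smagp, a small membrane protein gene, stood at 27.9 and 67.1 CPM (log2 1.26, 0.67 to 1.88). Gng13, a G protein gamma subunit gene, stood at 13.2 and 35.5 CPM in 16 and 34 cells (1.42, 0.57 to 2.33), though after thinning 12 control (7.79%) and 13 cKO cells (9.42%) had a UMI of it. Over all barcodes outside the gate these 2 genes were below 1 CPM in each library, but the Stra8 gate held them at similar or higher shares: after thinning, 9.80% and 21.4% of its cells had a UMI of Smagp, against 10.4% and 18.1% of gated cells, and 11.8% and 21.4% a UMI of Gng13. Ptcra stood at 16.2 and 42.4 CPM, Psmb10, a proteasome subunit gene, at 33.1 and 71.0 CPM (40.9 and 41.0 CPM in free RNA), Psmg4, a proteasome assembly factor gene, at 45.5 and 92.7 CPM (30.6 and 31.5 CPM in free RNA), and the X-linked Uxt at 22.8 and 48.3 CPM. Of the 16 higher genes, 13 kept a log2 ratio of 1 or more without mixed barcodes, 7 of them still with 50 UMIs. Psmg4, at log2 0.92, and Samd1, at 0.98, were among those that did not. The gene with the largest ratio, 1700112J16Rik, had 46 of its 47 cKO UMIs in 1 barcode.

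**Figure D2:**
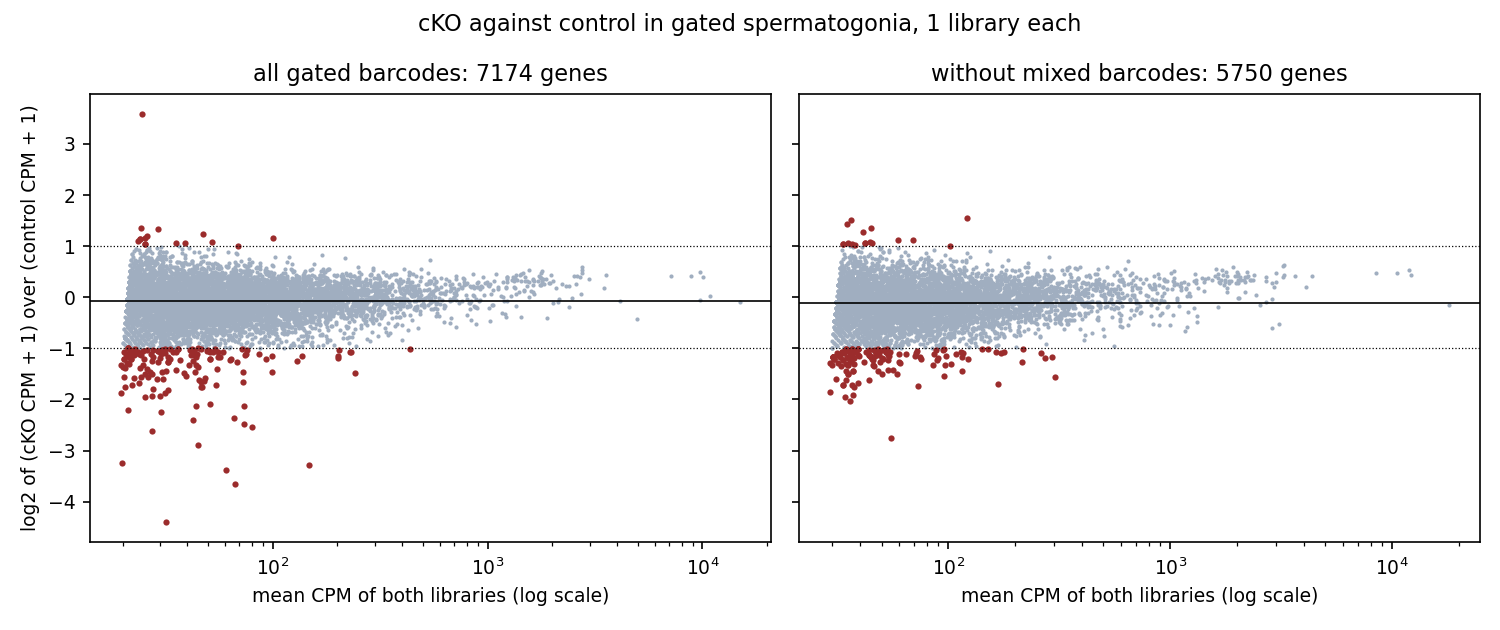
Each point is a gene with at least 50 UMIs over both libraries, with its mean CPM on the x axis (log scale) and the log2 ratio of cKO over control with 1 CPM added on the y axis, for all gated barcodes (left, 7174 genes) and without mixed barcodes (right, 5750 genes). Red points are past 2-fold; 156 lie below and 16 above on the left, and the horizontal line is the median.

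Undifferentiated spermatogonial genes were the list with the highest median ratio among the germ cell lists. The 26 genes summed to 242 CPM (216 to 269) in control and 307 CPM (274 to 343) in cKO, with the ratio at log2 0.34 (0.12 to 0.57). The same sum was 85.8 and 84.7 CPM in all other barcodes, but 377 and 487 CPM in the Stra8 gate and 199 and 215 CPM in the early meiotic gate, so the list was not particular to gated spermatogonia. It was 305 and 392 CPM in the spermatogonia gate without mixed barcodes. Only 5 of the 26 had 50 UMIs or more; their median log2 ratio was 0.41 (0.47 without mixed barcodes), with members from -0.06 to 0.87, 1 lay below 0, against 58.0% of all genes, and 0 were past 2-fold. Sox3, a transcription factor gene of undifferentiated cells about to differentiate, had 28 UMIs in 21 control cells and 39 in 34 cKO cells, 20.6 and 38.5 CPM, log2 0.90 (0.17 to 1.66). Foxo1, a transcription factor gene that stem cells need, stood at 28.6 and 49.3 CPM, log2 0.78 (0.15 to 1.43). Egr4 stood at 20.6 and 27.6 CPM, Sall4 at 21.3 and 25.6 CPM and Taf4b at 51.4 and 49.3 CPM, with intervals that spanned 0. Of the 5 measured members, the intervals of Sox3 and Foxo1 lay above 0 and the others spanned it, but the share of all genes with an interval above 0 was not counted. The list's median was 0.03 with 4 or more gate markers required. Sertoli markers also differed in the gate, at 453 and 571 CPM, or 231 and 255 CPM without mixed barcodes, and their part in this difference was not tested.

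The stem cell end of the list rested on very few UMIs and had members on both sides. Gfra1, the GDNF co-receptor, had 9 UMIs in control and 2 in cKO. Id4, an inhibitor of helix-loop-helix factors that marks stem cells, had 32 and 17, and Etv5, a target of GDNF signalling, 7 and 3. Id4 was also above its gated level outside the gate, at 49.0 and 50.1 CPM against 23.5 and 16.8, so its UMIs are not specific to spermatogonia here. Nanos3, an RNA-binding protein gene, had 2 UMIs in control and 10 in cKO, log2 2.75 (0.52 to 5.98), Neurog3, a factor of cells leaving the stem state, 2 and 7, and Ret, the GDNF receptor, 2 and 6. Lin28a, an RNA-binding protein gene of undifferentiated cells, had 21 and 22, and Upp1 10 and 14. Nanos2 and Pax7 had 0 in both libraries. The remaining members had at most 12 UMIs in either library.

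To describe single cells, each was thinned to 3000 UMIs and scored for 13 undifferentiated genes: Gfra1, Ret, Id4, Etv5, Nanos2, Nanos3, Neurog3, Sox3, Upp1, Lin28a, Egr4, Tcl1 and Eomes. Cells with UMIs of at least 2 of them were taken as an undifferentiated range, which is a range and not a cell type. In control 5 of 154 cells lay in it, 3.25% (1.06 to 7.41), and in cKO 15 of 138, 10.9% (6.21 to 17.3). The difference was 7.62 percentage points, with an interval of 1.75 to 14.2. Cells with exactly 1 of the genes, just outside the range, numbered 25 and 24. Without mixed barcodes the range held 4 of 130 and 15 of 110 cells, 3.08% (0.845 to 7.69) and 13.6% (7.84 to 21.5). Unthinned it held 13.6% (8.64 to 20.1) and 21.7% (15.2 to 29.6). As a background, it held 0.0571% and 0.132% of the elongating spermatid gate, 0 of 97 and 0 of 93 Leydig barcodes, and 0 of 427 and 0 of 154 early meiotic barcodes. A floor of 3 cells allows shares of up to 3.09% and 3.23% in the first gate, where the exact upper limits are 3.73% and 3.89%, and of up to 0.703% and 1.95% in the second, where they are 0.860% and 2.37%. In the Stra8 gate it held 4 of 102 (3.92%, 1.08 to 9.74) and 6 of 56 (10.7%, 4.03 to 21.9), the same order as in the gate. With 3 or more genes asked for, 2 control and 4 cKO cells were left, 1.30% (0.158 to 4.61) and 2.90% (0.795 to 7.26), a difference of 1.60 points. With 1 or more, the shares were 19.5% (13.5 to 26.6) and 28.3% (20.9 to 36.5). At each of these cuts, and at 2 genes, the intervals of the 2 shares overlapped over all gated barcodes. Without mixed barcodes, by limits chosen after seeing the data, those at 2 genes did not.

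Within the gate, the cells of this range had fewer detections of Kit and more of Zbtb16. Unthinned, Kit had a UMI in 8 of 21 control (38.1%) and 5 of 30 cKO (16.7%) cells of the range, and in 62 of 95 (65.3%) and 50 of 76 (65.8%) cells with no undifferentiated gene. Zbtb16 had a UMI in 10 of 21 (47.6%) and 20 of 30 (66.7%) cells of the range and in 19 of 95 and 12 of 76 of the others. The cells of the range were also deeper, with medians of 8362 and 6089.5 UMIs against 5958 and 5304.5. Without mixed barcodes, Kit was seen in 8 of 18 and 3 of 26 cells of the range and in 53 of 81 and 41 of 60 cells with none. Kit and Zbtb16 are gate markers, so a cell without one had to hold others, and these shares are descriptions.

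Genes that separated the range from cells with none of the 13 genes in the same direction in both libraries were then listed from unthinned counts without mixed barcodes (18 and 26 cells in the range against 81 and 60); they were chosen after their values were seen. Sdc4 led, at 213 CPM in the range against 14.2 in control and at 569 against 12.0 CPM in cKO. Tubb5, a beta-tubulin gene, stood at 518 against 56.9 CPM in control and 502 against 86.6 in cKO. Ccnd2, a D-type cyclin gene, stood at 170 against 28.5 and 83.7 against 2.99 CPM, and Trim71, a target of let-7 microRNAs, at 163 against 24.4 and 201 against 32.9 CPM. Other genes were lower in the range. Rhox13, an X-linked homeobox gene, stood at 28.4 against 124 CPM in control and 33.5 against 152 in cKO. Rhox13 and Ccnd2 are both on the list of differentiating genes described below, so members of that list went both ways. Meioc, a gene needed to keep meiotic prophase going, stood at 71.0 against 258 and 33.5 against 161 CPM. Mki67, a proliferation marker, stood at 312 against 665 and 167 against 409 CPM. Sdc4 is thus a gene of the cells whose share was higher in cKO as well as a gene higher in cKO over the whole gate, and the part of the one in the other was not tested.

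**Figure D3:**
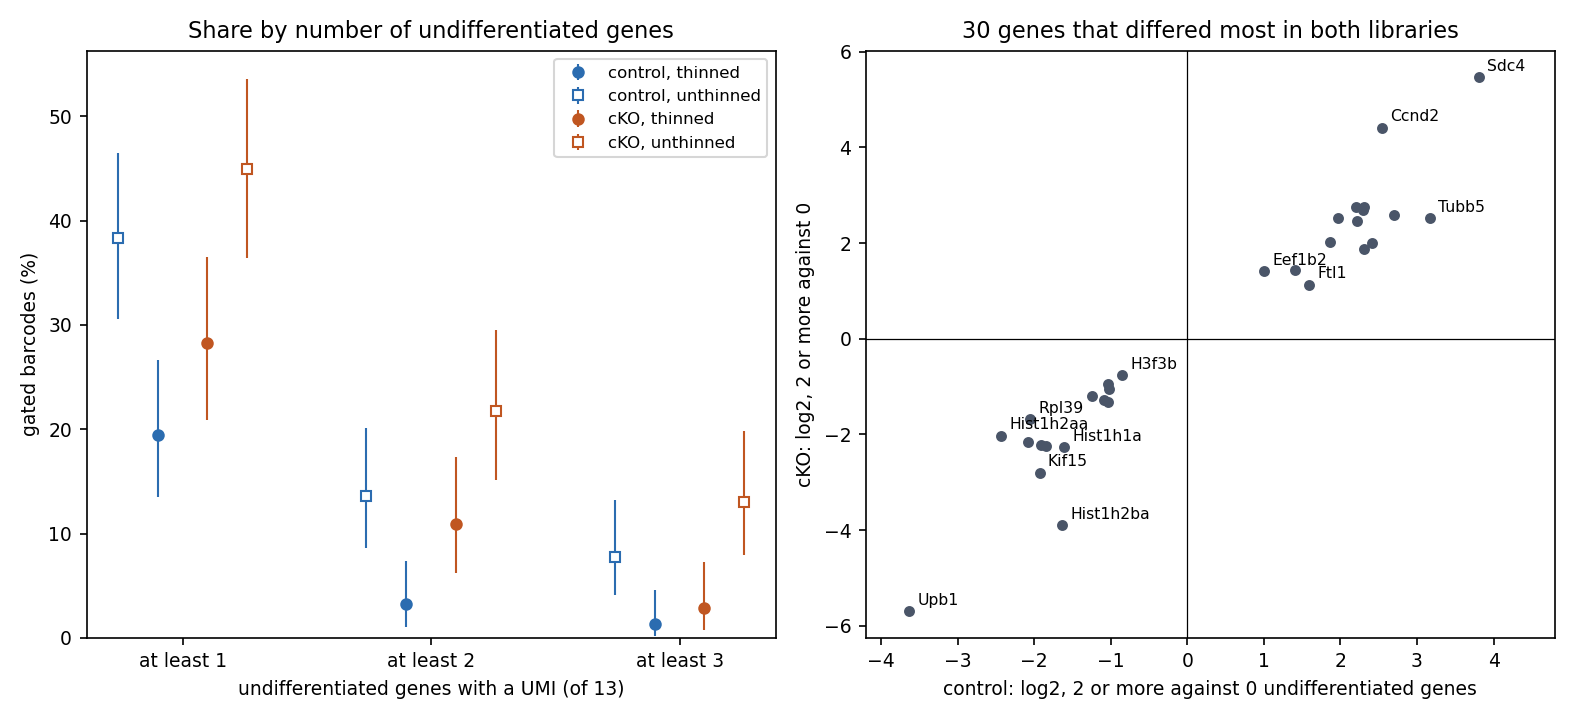
Left, the percentage of gated barcodes with UMIs of at least 1, 2 or 3 of 13 undifferentiated genes, by library, thinned to 3000 UMIs (filled) or not (open), with exact 95% intervals; at 2 genes the thinned shares are 3.25% in control and 10.9% in cKO. Right, in unthinned counts without mixed barcodes, the log2 ratio of cells with 2 or more such genes over cells with 0, control on the x axis and cKO on the y axis, for 30 genes chosen because they differed in both libraries; Sdc4 is highest in both.

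Differentiating spermatogonial genes summed to similar levels in both libraries, and the genes differed from each other in how many cells held them. After thinning, Dazl had a UMI in 87.7% of gated cells in each library and Scml2 in 46.1% and 35.5%, but Rhox13 in 21.4% and 25.4% and Sohlh2 in 9.09% and 3.62%. Unthinned, Scml2 was in 72.1% and 56.5%, Rhox13 in 40.9% and 40.6% and Sohlh2 in 18.8% and 10.1%. The 14 of 15 listed genes found in the files summed to 1696 and 1621 CPM, with the ratio at log2 -0.07 (-0.16 to 0.03). Of these, 11 were measured, with a median of -0.26 (-0.34 without mixed barcodes) and 0 past 2-fold. Dazl stood at 707 and 726 CPM in 151 and 135 cells. Rhox13 stood at 63.2 and 91.7 CPM, log2 0.54 (0.10 to 0.98), and Dnmt3b, a DNA methyltransferase gene, at 43.3 and 50.3 CPM. On the other side, Scml2, a germline Polycomb protein gene on the X, stood at 170 and 135 CPM (-0.34, -0.65 to -0.02). Nr6a1, an orphan nuclear receptor gene, stood at 94.0 and 64.1 CPM (-0.55, -1.01 to -0.11; -0.35, -0.94 to 0.23 without mixed barcodes) and was also at 93.1 and 65.6 CPM outside the gate. Tex14, a gene of the bridges between germ cells, stood at 88.9 and 74.0 CPM and Sohlh2 at 22.0 and 16.8 CPM. Dmrtb1, a factor that coordinates the exit from mitosis, stood at 280 and 273 CPM but at 458 and 519 CPM outside the gate, and 36.4% and 34.8% of elongating spermatid barcodes had a UMI of it after thinning against 51.3% and 44.2% of gated ones.

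Meiotic prophase genes were present in the gate, with a ratio near that of all genes. The 21 genes summed to 2586 and 2407 CPM, a log2 ratio of -0.10 (-0.18 to -0.03), with a median of -0.17 (-0.20 without mixed barcodes) over the 12 measured, 10 of them below 0 and 0 past 2-fold. Over all genes the median was -0.08 and 58.0% lay below 0. In all other barcodes the same list stood at 2765 and 2585 CPM. Sycp1 and Sycp3, genes of the synaptonemal complex, stood at 549 and 541 CPM and at 275 and 238 CPM. Smc1b, the meiotic cohesin subunit gene, stood at 505 and 435 CPM (-0.22, -0.39 to -0.04). Their levels outside the gate were of the same size, 339 and 305 CPM for Sycp3. After thinning, 53.2% and 51.4% of gated cells had a UMI of Sycp3 against 17.2% and 13.5% of elongating spermatid barcodes. The Stra8 gate, with 80.4% and 78.6%, and the early meiotic gate, with 96.7% and 98.1%, held it more often.

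X-linked germ cell genes were high in the gate of both genotypes and in the gates nearest to it. The 20 genes summed to 1464 CPM (1400 to 1530) in control and 1528 CPM (1453 to 1607) in cKO, against 153 and 134 CPM in the other barcodes and 77.9 and 66.2 CPM in free RNA. The Stra8 gate stood higher, at 1638 and 1834 CPM, and barcodes left out of the gate for exactly 2 Stra8 UMIs stood at 1283 and 1303 CPM. Among the 12 measured, the median log2 ratio was 0.10 (0.05 without mixed barcodes), 4 lay below 0, against 58.0% of all genes, and 0 were past 2-fold. Usp26, a ubiquitin protease gene, stood at 306 and 334 CPM, Taf7l, a germ cell TFIID subunit gene, at 275 and 253 CPM, and Nxf2, an RNA export factor gene, at 137 and 168 CPM. Mageb4 stood at 44.8 and 69.0 CPM, log2 0.62 (0.11 to 1.14), and Tex13b at 76.4 and 94.7 CPM. Zfx, a zinc-finger factor gene, stood at 55.1 and 37.5 CPM (-0.56, -1.16 to 0.03). Mageb4, Rhox13 and Scml2 were the only members of this list with an interval on one side of 0, the first 2 above it. How many of all genes had such an interval was not counted. In the early meiotic gate the list summed to 1135 and 790 CPM. The sign of the list's median was not stable, since it was -0.20 with 4 or more gate markers required and -0.17 without cells that held UMIs of 2 or more somatic markers of 1 type.

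The share of UMIs from the whole X chromosome was 1.68% (1.65 to 1.70) in gated control and 1.66% (1.64 to 1.69) in gated cKO. Without mixed barcodes it was 1.73% and 1.77%, so that the difference changed sign from -0.0153 to 0.0455 percentage points. The other barcodes together held 0.882% and 0.846%, and barcodes of a pachytene gate, in which the X is silenced, 0.0945% and 0.0849%. Free RNA held 1.47% and 1.502%, close to the gate, and elongating spermatids 1.34% and 1.27%. The Leydig, Sertoli and Stra8 gates held shares close to or above that of the spermatogonia gate. They were 2.34% and 2.06% in the Leydig gate, 1.69% and 1.81% in the Sertoli gate and 1.66% and 1.89% in the Stra8 gate. Between these and pachytene stood the early meiotic gate, with 1.03% (1.02 to 1.04) in control and 0.771% (0.754 to 0.788) in cKO. Chromosomes were known for the genes behind 92.5% and 91.3% of gated UMIs.

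**Figure D4:**
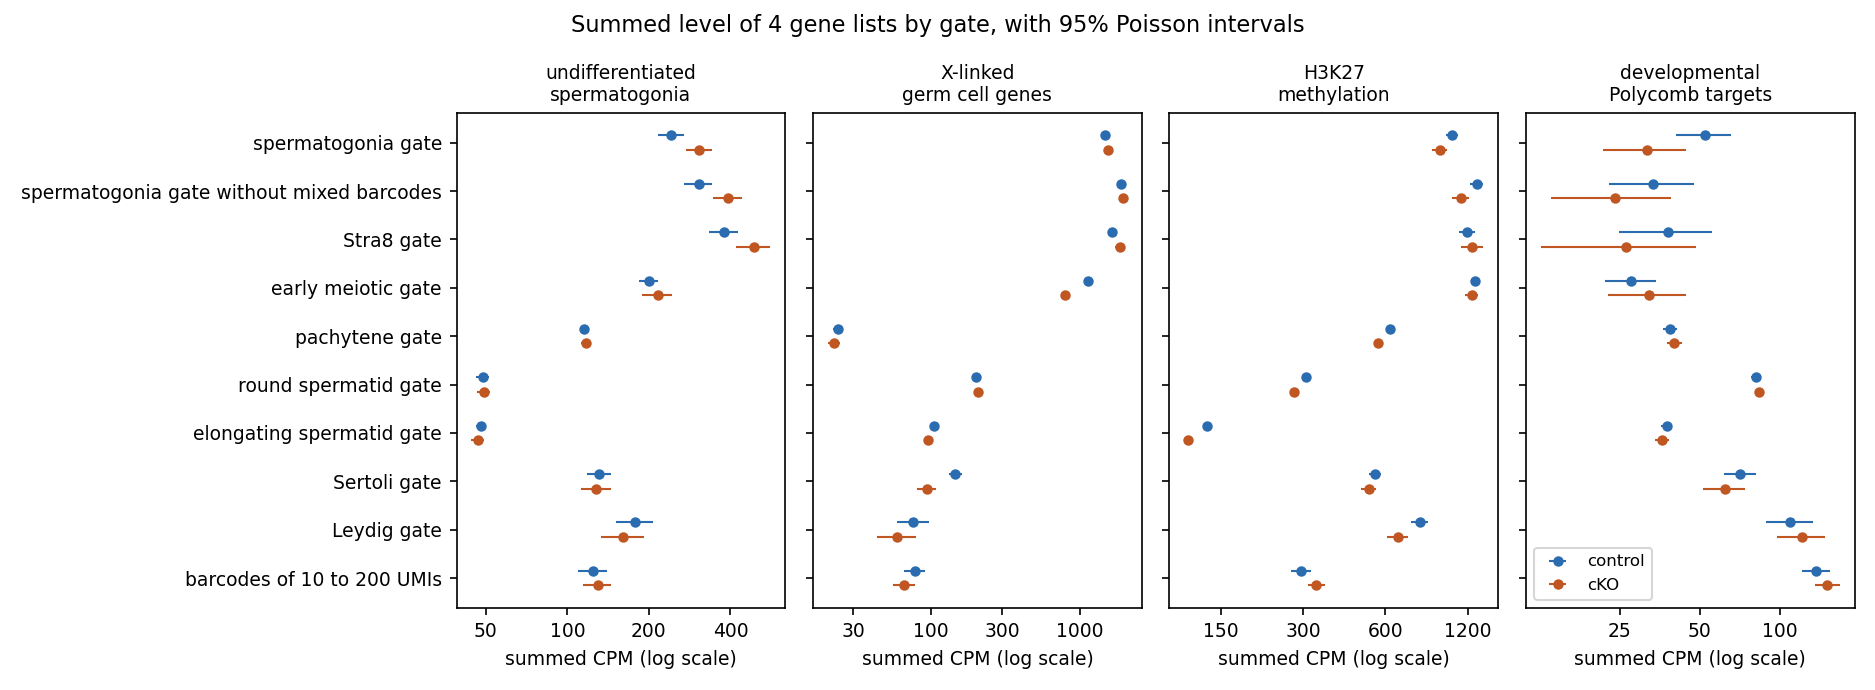
Summed CPM (log scale) of 4 gene lists in each gate, control in blue and cKO in orange, with exact 95% Poisson intervals. The X-linked list is above 1400 CPM in the spermatogonia gate of both libraries and near 100 CPM in elongating spermatids, and the undifferentiated list is higher in cKO in the spermatogonia gate.

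Most gated cells held transcripts of cell cycle genes. After thinning, 75.3% of control and 71.7% of cKO cells held UMIs of at least 3 of 16 S phase genes, against 1.58% and 1.61% of elongating spermatid barcodes, and 89.0% and 84.1% held at least 3 of 16 G2 and M phase genes, against 10.2% and 7.40%. The Stra8 gate had similar shares, 81.4% and 80.4% for S phase and 92.2% and 83.9% for G2 and M, and the early meiotic gate 51.5% and 55.8% for S phase and 97.2% and 97.4% for G2 and M. Unthinned, the shares in the spermatogonia gate were 95.5% and 95.7% for S phase and 99.4% and 95.7% for G2 and M. S phase genes summed to 1365 and 1361 CPM, with a median log2 ratio of 0.09 over 16 measured genes (-0.06 without mixed barcodes) and 0 past 2-fold. Pcna, the sliding clamp gene of replication, stood at 157 and 156 CPM, and Ccne2, the E-type cyclin gene, at 89.6 and 52.3 CPM (-0.78, -1.27 to -0.30). G2 and M phase genes summed to 3425 and 2857 CPM, a log2 ratio of -0.26 (-0.33 to -0.19), with 8 of 16 members below 0 (10 without mixed barcodes), against 58.0% of all genes, and 0 past 2-fold. The list's median was -0.15, and -0.30 without mixed barcodes. Mki67 stood at 416 and 257 CPM (-0.69, -0.91 to -0.48), Plk1, a mitotic kinase gene, at 107 and 67.1 CPM (-0.67, -1.11 to -0.24) and Top2a, a topoisomerase gene, at 488 and 386 CPM (-0.34, -0.52 to -0.16). Ccnb1, the mitotic cyclin gene, was at 141 and 165 CPM (0.22, -0.08 to 0.53), so members lay on both sides of 0. Mki67 was also lower in cKO outside the gate, at 30.0 and 15.9 CPM.

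Genes that Polycomb holds silent during development were near 0 in gated cells of both genotypes. The 26 listed targets had 71 UMIs in control and 32 in cKO, 52.2 and 31.6 CPM, less than the 137 and 151 CPM of free RNA. Without mixed barcodes they stood at 33.4 and 24.1 CPM. Over all gated barcodes, 11 of the 26 had no UMI in control and 18 had none in cKO, and 0 reached the minimum of 50 UMIs. Over all 27025 genes with a start site, 6144 had no UMI in the gated cells of either library, and 7174 of 32285 genes reached the minimum. The cKO gate held fewer UMIs in all, and the part of depth in the counts at 0 was not tested.

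Peaks in cKIT+ spermatogonia placed these groups on different chromatin. A sort for cKIT need not take the same cells as the gate. Kit had a UMI in 62.3% and 53.6% of gated barcodes, and in 8 of 21 control and 5 of 30 cKO cells of the undifferentiated range. Developmental Polycomb targets had an H3K27me3 peak in all 5 libraries at 18 of 18 start sites and an ATAC-seq peak in all 5 at 0. Undifferentiated genes came next, with H3K27me3 in all 5 at 9 of 17: Gfra1, Id4, Lin28a, Eomes, Neurog3, Upp1, Utf1, Pax7 and Lhx1. They had ATAC-seq peaks in all 5 at 3 of 17. Differentiating genes had H3K27me3 in all 5 at 0 of 12 and ATAC-seq at 5 of 12, and X-linked germ cell genes 0 and 3 of 17. Fewer than 5 libraries is not the same as none. A further 10 of the 17 X-linked genes had an ATAC-seq peak in some libraries and 4 had it in none, against 13091 of 27025 genes in none. Meiotic prophase genes were open at 14 of 17, S phase genes at 12 of 13 and G2 and M phase genes at 13 of 14, with H3K27me3 in all 5 at 0 of each. Over all genes the shares were 26.2% for ATAC-seq and 6.12% for H3K27me3. Genes measured in gated cells without mixed barcodes were open more often the higher their level there: in 3 equal groups by level, 66.3%, 71.4% and 78.5% had ATAC-seq peaks in all 5 libraries and 1.87%, 1.03% and 0.580% had H3K27me3. Of 6144 genes with 0 UMIs in all gated barcodes, mixed ones included, 2.64% had ATAC-seq peaks and 8.72% H3K27me3 peaks in all 5. Since a peak was asked for in all 5 libraries of both genotypes, these counts carry no comparison of genotypes. The libraries differed in the number of ATAC-seq peaks (14635 to 40497) and of H3K27me3 regions (11118 to 18494). The library labelled cKO 1 for ATAC-seq, the one with the fewest peaks, carries peak names that match a control; without it 5 of 17 undifferentiated, 9 of 12 differentiating and 2 of 18 Polycomb genes had ATAC-seq peaks in all.

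**Figure D5:**
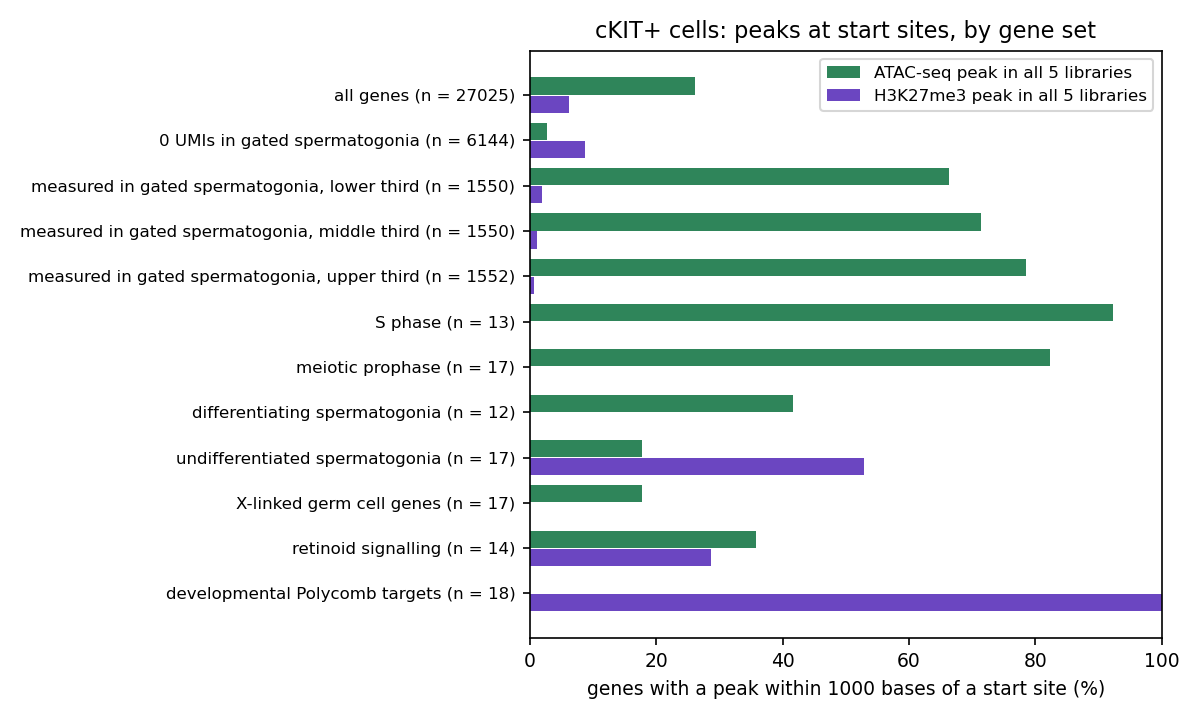
Percentage of genes in each set with an ATAC-seq peak (green) or an H3K27me3 peak (purple) within 1000 bases of a start site in all 5 libraries of cKIT+ cells; n is the number of genes with a start site in the table. Developmental Polycomb targets are at 100% and undifferentiated spermatogonial genes at 52.9% for H3K27me3. The groups of measured genes by level were formed without mixed barcodes.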

How the data were processed

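The deposited single-cell matrices hold UMI counts per gene and barcode made by the authors with Cell Ranger, per the file headers (format 4), on mm10, per the submitters' processing notes, which also name Seurat 4.1.0. The authors' ATAC-seq peak lists give each peak its fold enrichment, a ratio, and its -log10 q, and their CUT&Tag lists give the summed signal per region, per the file headers. The processing notes name cutadapt, Bowtie2, MACS2, SAMtools, deepTools and SEACR. By their names, 4 of 5 H3K27me3 files were downsampled and cKO 2 was not. An IgG library had 1449 regions, which touched 169 genes.

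From the counts, UMIs of gated barcodes were summed per library (library totals 229882646 and 172368722 UMIs) and scaled to CPM with Python 3.11.15, numpy 2.4.6, scipy 1.17.1 and pandas 2.3.3. Genes with 50 UMIs over both libraries were measured and called past log2 1 with 1 CPM added. The script was tested on simulated data. Named genes are the gate genes, Kdm6a, list members, up to 10 genes in each direction ordered by the bound of their interval nearest 0, and the 20 highest in gated against other barcodes. Members and lists were chosen with earlier results of these data known. No doublet caller was run. Start sites came from RefSeq, GRCm38.p6, which shares coordinates with mm10, and matched 214 of 280 list genes. Meiosin was not among the files' symbols. Bulk RNA libraries were not used here. Alternatives changed the gate, depth, minimum, added CPM and free RNA. Leaving out mixed barcodes, the 3 deepest barcodes of each library or the cKO 1 ATAC-seq library, and another seed for thinning, were added after seeing the data.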

Additional observations from a re-analysis of the deposited data

How the results depend on the processing

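No paired analysis was possible because there is 1 single-cell library per genotype and no result comes from a test. The difference in the share of gated barcodes ran from -0.0702 to 0.366 percentage points over 11 alternatives, below 0 in 1, and the log2 ratio of Kdm6a from -2.11 to 0.11 over 13, above 0 in 1. The share in the undifferentiated range was higher in cKO under all 14 alternatives, by 1.60 points with 3 or more genes required and by up to 10.6 points otherwise, and a minimum of 2000 UMIs gave no value for it, since its cells are thinned to 3000. In the main setting, unthinned, and with at least 1 or 3 genes required, the separate intervals of the 2 shares overlapped. Thinned and without mixed barcodes, at 2 genes, they did not. The counts of genes past 2-fold depended on the settings. Against 156 lower genes, there were 76 with the gate read from thinned cells, 103 without the deepest 5% of cells, 103 with 5 CPM added, 403 with 20 or more UMIs, 15 with 200 or more, and 393 with free RNA subtracted. Against 16 higher genes, there were 84 with 4 or more gate markers, 45 with fewer than 2 meiotic genes, 32 without cells that held UMIs of 2 or more somatic markers of 1 type, 6 with 5 CPM added, 117 with 20 or more UMIs, 1 with 200 or more, and 153 with free RNA subtracted. A minimum of 20 or 200 UMIs changes by construction how many genes enter. For the other shifts the cause was not tested. With 4 or more gate markers, list medians were -0.37 for meiotic prophase, -0.20 for X-linked germ cell genes, -0.42 for the KMT2C/D complex, -0.45 for DNA methylation, -0.39 for germ cell RNA regulators and -0.26 for S phase. Without cells holding somatic markers they were -0.25 for meiotic prophase, -0.17 for X-linked genes and -0.41 for G2 and M phase, and meiotic prophase was -0.29 with the thinned gate and -0.24 with free RNA subtracted. The undifferentiated median stayed above 0 under all 16 alternatives (0.03 to 0.73) and the H3K27 methylation median below 0 under all 17 (-0.33 to -0.06). The difference in the X chromosome share was 0.0455 points without mixed barcodes. ATAC-seq peaks in all libraries were found at 5 undifferentiated, 9 differentiating and 2 Polycomb genes without cKO 1, at 1 undifferentiated and 2 differentiating genes with only the stronger peaks of each list (above its median), and at 2 Polycomb genes within 2500 bases, where H3K27me3 was found at 1 differentiating gene. Depth limits single genes: of 26 undifferentiated genes, 21 lay under 50 UMIs.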

Other observations

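Germ cell RNA regulators, which silence transposons and control translation, were present in gated cells at similar summed levels, 2370 CPM in control and 2224 in cKO. Of 15 genes 13 were measured, with a median log2 ratio of -0.09, beside -0.08 over all genes, and 0 were past 2-fold. Without mixed barcodes the median was -0.21 over 12 genes, beside -0.11 over all genes. Mael, a gene of the piRNA pathway, stood at 272 CPM in gated control and 315 in gated cKO, and Mov10l1, the piRNA helicase gene, at 206 and 157 CPM, with a log2 ratio of -0.39 (-0.68 to -0.11). Piwil2 stood at 78.6 and 58.2 CPM and Tdrkh at 97.0 and 90.7 CPM. Genes of the KMT2C/D complex, in which KDM6A is a subunit, summed to 544 CPM in control and 526 in cKO, and their median over 6 measured genes was -0.07, and -0.10 without mixed barcodes. Dnmt1, the maintenance DNA methyltransferase gene, stood at 214 and 184 CPM, Tet3 at 54.4 and 54.2 CPM and Uhrf1 at 70.5 and 82.8 CPM.

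Of 18 genes of retinoid signalling, 4 were measured in gated cells, with a median log2 ratio of -0.29, and 3 without mixed barcodes, with a median of 0.26. Rbp4, a retinol carrier gene, stood at 60.2 and 74.0 CPM and Rxrb, a retinoid receptor gene, at 29.4 and 43.4 CPM. Aldh1a2, which encodes an enzyme that makes retinoic acid, stood at 43.3 and 21.7 CPM, a log2 ratio of -0.998 (-1.78 to -0.27), and at 61.4 and 59.5 CPM in the barcodes outside the gate. Aldh1a1, an enzyme gene of Sertoli and Leydig cells, stood at 31.6 and 16.8 CPM, and at 7.55 and 4.52 CPM without mixed barcodes. Leydig markers as a list stood at 264 and 53.2 CPM in the gate and at 18.3 and 15.1 CPM without mixed barcodes, and Sertoli markers at 453 and 571 CPM and at 231 and 255 CPM.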
